A study of Mus musculus with 12 samples.

Results

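The SR protein, hnRNP and SF3 genes of the mouse were followed across 3 epithelial compartments of the skin, with and without deletion of the epidermal growth factor receptor gene Egfr. The group was selected on the measured fall of Srsf2 in ORS knockout libraries. Members were taken by gene symbol: Srsf followed by a number, Hnrnp followed by its letters and numbers, and Sf3a or Sf3b followed by a number. This gave 37 of 25965 listed genes, of which 11 are Srsf, 18 Hnrnp and 8 Sf3 genes, and all 37 passed the filter on low reads. Family members that carry other symbols were not matched. Because of that choice, ORS knockout against control is given for every member as a description with no test.

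RNA was sequenced in 12 libraries, 2 in each of 6 groups of compartment and genotype. IFE control (E341 and E360), ORS control (E341 and E344) and HFSC control (L94 and L136) libraries carry the genotype EGFR_fl_fl, a floxed Egfr with no deletion named. IFE and ORS knockout libraries (E358 and E359 in each) are EGFR_delta_ep, and HFSC knockout libraries (L95 and L97) are EGFR_delta_LGR5, so the HFSC deletion is another one. The labels write IFE beside inner root sheath; ORS is the outer root sheath, and HFSC are stem cells of the hair follicle. The sources used here do not give the driver of either deletion or the animals' age. The ORS controls differ in sex, so they are of different animals. For the other groups this is not stated, and a p-value reflects only the spread between libraries, which may be technical. Compartment, mice and title series differ together between HFSC and the others, and these cannot be told apart.

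Gene reads per library ranged from 11.4 to 27.7 M, which was 50.6% to 54.6% of the library total in ORS and 26.9% to 29.6% in IFE and HFSC. Levels are CPM: the reads of a gene per 1000000 gene reads, scaled by TMM. Egfr stood at 117 and 155 CPM in IFE control and at 0.0 and 0.321 CPM in IFE knockout, at 275 and 247 against 3.70 and 55.0 CPM in ORS, and at 429 and 390 against 334 and 330 CPM in HFSC. The HFSC libraries labelled knockout thus kept most of the Egfr level. The 6 IFE markers (among them Krt1, Krt10 and Krtdap) summed to 6206 to 8498 CPM in IFE, to 1979 to 2438 CPM in HFSC and to at most 449 CPM in ORS. In HFSC nearly all of that sum was Sbsn, at 1873 to 2281 CPM against 64.5 to 161 CPM in IFE, while Krt1, Krt10 and Krtdap were each at no more than 81.7 CPM. The 6 HFSC markers (among them Cd34, Krt15 and Lgr5) summed to 21376 to 38660 CPM in HFSC and to at most 6475 CPM elsewhere. Krt15, at 19226 CPM or more in HFSC, made most of that sum. Cd34 was at 1330 to 2143 CPM in HFSC, at most 5.87 CPM in ORS and 0 in all IFE libraries, whereas Lgr5 was at 132 to 356 CPM in HFSC and 340 to 492 CPM in ORS, and Nfatc1 was also higher in ORS. The 6 ORS markers (among them Krt5, Krt14 and Krt75) were not highest in ORS, where they summed to 10766 to 11187 CPM against 18394 CPM or more in the other libraries. Krt5 and Krt14 were both lowest in ORS. Sox9 was at 1642 to 2963 CPM in ORS and 1554 to 1991 CPM in HFSC, against 172 to 395 CPM in IFE, and Krt75 was at no more than 3.35 CPM in ORS. By Xist and Y-linked reads, IFE control libraries were male and IFE knockout libraries female, HFSC controls female and HFSC knockouts male. Sex and genotype therefore cannot be told apart in IFE and HFSC. Of the ORS libraries only control E341 was male.

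SR proteins bind exonic enhancer sequences through RNA recognition motifs and recruit the spliceosome through a domain rich in arginine and serine, whose phosphorylation sets their place and activity in the nucleus. The hnRNPs coat nascent transcripts and often act against SR proteins at splice sites, and several also act in transport, stability and translation of mRNA. SF3A and SF3B are the protein complexes of the U2 snRNP that hold it on the branch point of the intron. In the epidermis these factors are present in all keratinocytes, and many of their own transcripts carry exons that trigger decay and so limit their level.

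Promoter sequences are shown for 4 members on which the results turn: Srsf2, which prompted the choice, Srsf5, which like Srsf2 was not low in HFSC, and Hnrnpd and Hnrnpa1, whose levels were far lower there. Each is the 250 bases before the RefSeq start of the gene, on GRCm38.p6, the mm10 build, 5′ to 3′ on the gene's strand. Srsf2 lies at chr11:116853095-116853344 (minus strand), Srsf5 at chr12:80945249-80945498 (plus strand), Hnrnpd at chr5:99978939-99979188 (minus strand) and Hnrnpa1 at chr15:103240147-103240396 (plus strand). Capitals mark every match, on either strand, to the TATA box TATAAA, the CCAAT box, the GC box GGGCGG, the ETS site CCGGAAG, the E-box CACGTG or the cAMP response element TGACGTCA. Matches could overlap.
Srsf2: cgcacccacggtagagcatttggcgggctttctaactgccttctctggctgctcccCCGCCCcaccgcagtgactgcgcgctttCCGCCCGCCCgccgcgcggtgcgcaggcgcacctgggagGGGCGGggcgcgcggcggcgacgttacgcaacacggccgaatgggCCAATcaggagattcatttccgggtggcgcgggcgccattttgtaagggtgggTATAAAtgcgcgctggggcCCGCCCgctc
Srsf5: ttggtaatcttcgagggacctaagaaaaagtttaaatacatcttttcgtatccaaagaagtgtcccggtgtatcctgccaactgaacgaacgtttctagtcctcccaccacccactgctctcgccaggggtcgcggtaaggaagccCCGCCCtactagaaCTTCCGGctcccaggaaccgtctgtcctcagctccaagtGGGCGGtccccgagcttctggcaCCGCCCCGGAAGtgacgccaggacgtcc
Hnrnpd: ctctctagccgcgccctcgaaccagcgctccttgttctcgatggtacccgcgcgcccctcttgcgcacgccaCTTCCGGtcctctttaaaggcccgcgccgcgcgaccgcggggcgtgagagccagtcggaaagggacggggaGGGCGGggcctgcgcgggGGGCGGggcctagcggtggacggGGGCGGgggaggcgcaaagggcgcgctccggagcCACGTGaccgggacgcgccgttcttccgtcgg
Hnrnpa1: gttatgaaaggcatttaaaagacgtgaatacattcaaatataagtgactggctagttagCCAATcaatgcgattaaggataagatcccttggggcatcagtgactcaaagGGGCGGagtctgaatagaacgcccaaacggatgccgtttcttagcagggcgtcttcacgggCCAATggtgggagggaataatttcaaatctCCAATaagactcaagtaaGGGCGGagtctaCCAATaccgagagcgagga

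The Srsf2 window held 7 matches, among them a TATA box, a CCAAT box and 5 GC boxes. The Srsf5 window held 5, of which 2 were ETS sites. Hnrnpd had 3 GC boxes, an ETS site and an E-box, and Hnrnpa1 had 4 CCAAT boxes and 2 GC boxes. Bases G and C made up 69.6% of the Srsf2 window, 56.8% of Srsf5, 74.4% of Hnrnpd and 46.0% of Hnrnpa1. Over the 34 members with a RefSeq window, 26 (76.5%) held a GC box, against 35.4% of all genes in the same table. A CCAAT box was found for 18 (52.9% against 37.5%), an ETS site for 11 (32.4% against 7.83%), a TATA box for 4 (11.8% against 14.3%) and an E-box for 3 (8.82% against 6.86%). None held the cAMP response element, which 1.77% of all genes did. These are letter matches only.

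Per length of GENCODE M21 exon, the members spanned a wide range of levels, and the ranks below hold for that length only. Hnrnpa2b1, which binds sorting signals in RNA, was highest at 208 CPM per kb of exon over the 12 libraries. Srsf2, which binds both purine-rich and pyrimidine-rich enhancers, came next at 183 CPM per kb, before Srsf7 at 174 and Hnrnpk, a binder of C-rich stretches, at 137 CPM per kb. Hnrnpr was the lowest hnRNP at 6.19 CPM per kb of 22199 bp. Its deposited span ends at chr4:136340681 and the GENCODE gene at 136359447, so this level per kb may be too low. Without division by length, its mean of 137 CPM lay above that of Hnrnpa3 at 46.1 CPM. Among SF3 genes, Sf3b1, the largest SF3B subunit and contact to the branch point, was highest at 42.3 CPM per kb and Sf3a2 lowest at 10.9. Sf3b5 followed Sf3b1 at 41.4 CPM per kb of 3841 bp, but its deposited span is only chr10:13008450-13009182. Its level per kb is therefore too low and its rank among all members uncertain. Srsf12 was the lowest member at 1.35 CPM per kb, with 0 reads in 3 libraries (IFE control E360, IFE knockout E358, HFSC control L136) and 644 reads in ORS control E341. A count of 0 in those libraries allows up to 3 reads, or 0.240 to 0.268 CPM.

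The members together took 1.35% to 1.45% of gene reads in ORS, 0.976% to 1.08% in IFE and 0.713% to 0.811% in HFSC, so the ranges of the compartments did not overlap. The widest 95% Wilson interval of these shares reached 0.00588 percentage points to either side, for counting error only. The hnRNP genes summed to 6074 to 6333 CPM in IFE, 7745 to 8758 CPM in ORS and 3868 to 4334 CPM in HFSC. The SR genes summed to 2832 to 3286 CPM in IFE, 3186 to 3885 CPM in ORS and 2194 to 2747 CPM in HFSC, where IFE and ORS overlapped and HFSC lay below both. SF3 genes summed to 1106 to 1528 CPM in IFE, which overlapped both ORS (1433 to 1601 CPM) and HFSC (1072 to 1296 CPM), while ORS and HFSC were separate. The knockout and control sums of hnRNP genes overlapped in each compartment, as did those of SF3 genes. Those of SR genes overlapped in IFE and ORS. In HFSC the SR sums were separate, at 2194 to 2655 CPM in control and 2705 to 2747 CPM in knockout. Without Srsf2 they overlapped, at 1791.5 and 1910 CPM against 1891 and 1958 CPM.

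**Figure D1:**
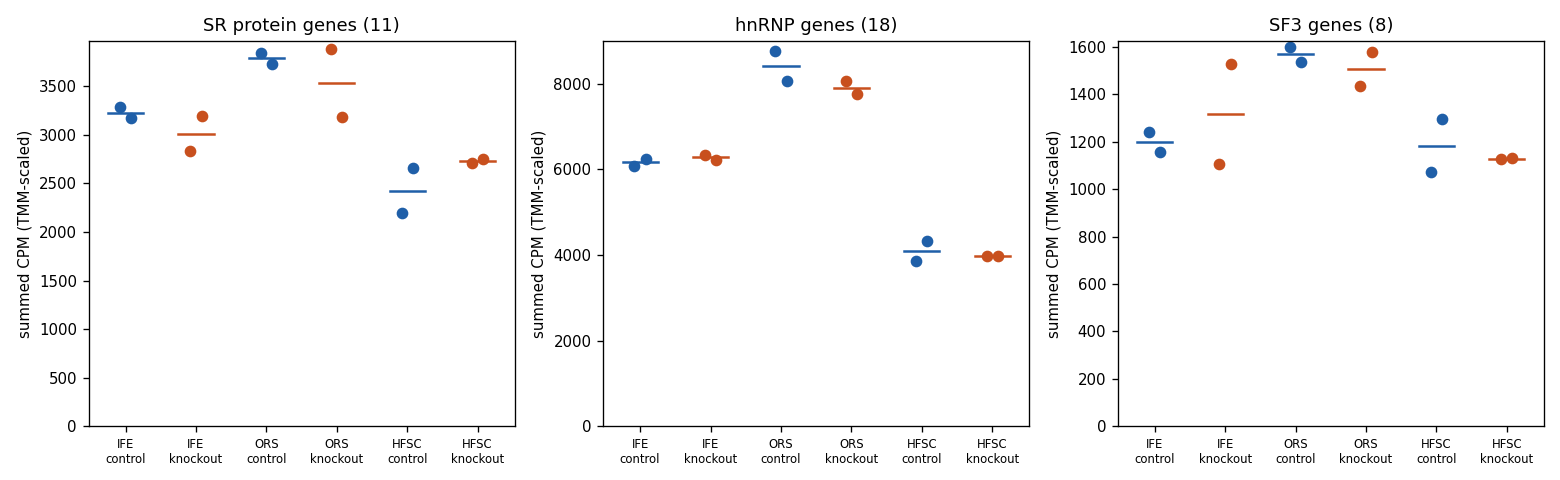
Summed level of the 11 SR, 18 hnRNP and 8 SF3 genes (CPM, y axis from 0) in each library, by group on the x axis. Points are libraries, blue for control and orange for knockout, and the bar is the mean of the 2 libraries; the hnRNP sum is 3868 to 4334 CPM in HFSC and 7745 to 8758 CPM in ORS.

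Srsf2 was measured at 586 and 632 CPM in ORS control and at 310 and 346 CPM in ORS knockout. In IFE it stood at 619 and 523 CPM in control and at 316 and 400 CPM in knockout. In HFSC the controls were at 402 CPM (L94) and 744 CPM (L136), and the libraries labelled knockout at 814 and 789 CPM. Control and knockout did not overlap in any compartment, but the knockout libraries were the lower ones in IFE and ORS and the higher ones in HFSC. The HFSC controls differed from each other by more than the HFSC means did. In group means, the order was HFSC knockout (801 ± 17.4 CPM, SD, n = 2), ORS control (609 ± 33.0), HFSC control (573 ± 242), IFE control (571 ± 68.2), IFE knockout (357.98 ± 59.4) and ORS knockout (328 ± 25.3). The 3 control groups lay within their spread of each other, as did the IFE and ORS knockout groups.

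On the log2 scale, Srsf2 was lower by a fitted change of -0.89 in ORS knockout (0.539 of control), which is the value that prompted the choice and has no test. In IFE knockout its change was -0.68 ± 0.19 (SE, 95% interval -1.11 to -0.25), with an unadjusted p of 0.00566 and an adjusted p of 0.491 in limma, so it was not called. The spread in that fit comes from the IFE and ORS libraries together, so the SE and p use the ORS libraries that prompted the choice. With IFE libraries alone, 0 members were called. In HFSC the change was 0.55 ± 0.27 (interval -0.09 to 1.19), with an adjusted p of 0.685 in limma. Without HFSC control L94 it was 0.11. The difference between the HFSC and IFE effects, a comparison added after the values were seen, was 1.23 ± 0.35 with an adjusted p of 0.415 in limma. Its spread came from all 12 libraries, ORS among them. The ORS and IFE comparisons have separate control libraries, though E341 names a library in each, and whether these share a mouse is not known.

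The share of Srsf2 in the summed SR level was 16.5% and 18.8% in IFE control, 11.2% and 12.5% in IFE knockout, 15.2% and 16.9% in ORS control, and 7.98% and 10.9% in ORS knockout. In HFSC it was 18.3% and 28.03% in control and 28.7% and 30.1% in the libraries labelled knockout. Srsf5, a further SR gene known for early induction in growing cells, took 10.7% to 15.1% in IFE and ORS and 20.1% to 22.1% in HFSC. The male and the female ORS control libraries, E341 and E344, held Srsf2 at 586 and 632 CPM. The part of sex in the Srsf2 values was not tested. The 10 immediate-early genes listed (Fos, Jun and others) summed to 470 and 473 CPM in ORS control and 169 to 181 CPM in ORS knockout, to 362 to 769 and 280 to 415 CPM in IFE, and to 780 to 1431 and 782 to 1402 CPM in HFSC, with none at 0 throughout a group. They lay lower in ORS knockout together with Srsf2, and their part in the Srsf2 values was not tested.

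Srsf2 is at chr11:116849901-116853094 on the minus strand (GENCODE M21), with 2 exon blocks. Its exons overlap those of Mettl23 by 460 bp (15.6% of the exon length) and of Mfsd11 by 288 bp (9.74%), both on the opposite strand. Whether the counting used strand is not given in the sources used here, so reads of these genes cannot be told apart there. Mfsd11 was at 31.8 and 19.7 CPM in ORS control and 20.7 and 50.9 CPM in ORS knockout, and at 11.2 to 81.0 CPM over all libraries, far below Srsf2. Mettl23, the larger overlap, is not among the listed genes, so its level is not known. No near-identical copy of Srsf2 was found among the GENCODE M21 transcripts of other genes, and the rest of the genome was not searched.

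**Figure D2:**
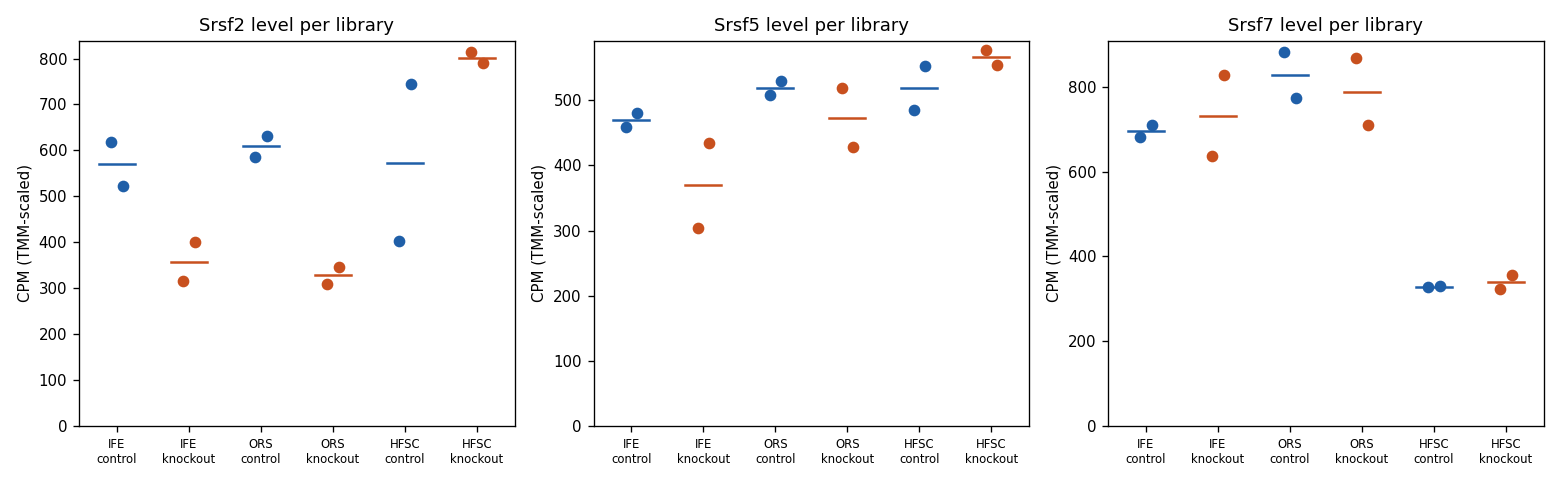
Levels of Srsf2, Srsf5 and Srsf7 (CPM, y axis from 0) in each of the 12 libraries, by group on the x axis, with control in blue, knockout in orange and the mean of the 2 libraries as a bar. Srsf2 is lower in the IFE and ORS knockout libraries (310 to 400 CPM) than in their controls (523 to 632 CPM), while Srsf7 is at 324 to 355 CPM in all HFSC libraries and at 636 CPM or more elsewhere.

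More members were called in the comparisons of HFSC with the other compartments than in any other comparison tested. Against ORS, 24 of 37 members were called at an adjusted p under 0.05 in limma, 23 lower and 1 higher in HFSC. The 1 higher was Srsf2, whose change uses the ORS knockout libraries that prompted the choice, so it is given as a description. Over all 15250 genes tested, 28.6% were called, 14.4% higher and 14.3% lower. The members' median change was -0.81, against 0.03 over all genes tested, and 33 of 37 were fitted lower. By family, 15 of 18 hnRNP genes, 6 of 11 SR genes and 2 of 8 SF3 genes were called lower. On the deposited scale, per library total, 36 members were called and all were lower, with 1046 genes called higher and 6388 lower and a median of -0.91 over all genes. With control libraries only, 18 members were called, all lower. Here and below, this compares the control groups within the same fit, whose spread still comes from all libraries. Of all 15250 genes, 2414 were called in that comparison, 1139 higher and 1275 lower.

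Against IFE, 20 of 37 members were called, 16 lower and 4 higher in HFSC, where 36.0% of all genes tested were called, 19.8% higher and 16.3% lower. The median change was -0.31 for the members and 0.17 over all genes. Those called lower were 10 hnRNP genes, 5 SR genes and Sf3b5. With control libraries only, 11 members were called, all of them lower and all among the 20. Of all 15250 genes, 3336 were called in that comparison, 1689 higher and 1647 lower. The HFSC controls were female and the IFE controls male, so sex and compartment cannot be told apart there.

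Hnrnpd (AUF1), which binds AU-rich elements and governs mRNA decay, was at 41.7 and 42.1 CPM in HFSC control and 39.8 and 51.2 CPM in HFSC knockout. In ORS it was at 161, 157, 217 and 135.8 CPM and in IFE at 177, 137, 114 and 143 CPM, controls first. All HFSC libraries were below all others. The change was -1.91 ± 0.20 against ORS (3.77-fold lower, adjusted p 2.8e-05 in limma) and -1.69 ± 0.20 against IFE (3.22-fold, adjusted p 4.37e-05). Hnrnpa1, the abundant antagonist of Srsf1 in splice site choice, was at 62.2 to 95.3 CPM in HFSC, 219 to 273 CPM in ORS and 188 to 253 CPM in IFE. It was 3.05-fold lower than in ORS (adjusted p 2.5e-05) and 2.72-fold lower than in IFE (adjusted p 3.42e-05), again without overlap. Hnrnpa1 has 9 near-identical copies among other genes annotated in GENCODE M21, of which 1 is counted in the files, so its own level is less certain.

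Hnrnpab, a relative of Hnrnpd that binds AU-rich RNA, was at 102 to 145 CPM in HFSC, 285 to 389 CPM in ORS and 309 to 438 CPM in IFE. Its change was -1.39 ± 0.17 against ORS and -1.68 ± 0.17 against IFE. Hnrnpa0, another A/B type hnRNP, was at 156 to 185 CPM in HFSC against 302 to 519 CPM in the other libraries, with changes of -1.24 ± 0.13 and -1.35 ± 0.13. Hnrnpu, a nuclear matrix and chromatin-bound hnRNP, was at 278 to 355 CPM in HFSC and 626 to 789 CPM elsewhere (-1.12 ± 0.12 and -1.14 ± 0.12). These 3 separated HFSC from every other library and did not differ by a called amount between ORS and IFE. Hnrnpl, which binds CA repeats, was at 192 to 218 CPM in HFSC and was 1.91-fold lower than in ORS and 2.60-fold lower than in IFE.

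Among SR genes, Srsf1, the founding member of the family, was at 131 and 134 CPM in HFSC control, 119 and 145 CPM in HFSC knockout, 325 to 426 CPM in ORS and 250 to 314 CPM in IFE. It was 2.75-fold lower than in ORS (adjusted p 2.31e-05 in limma) and 2.10-fold lower than in IFE (adjusted p 0.000138). Srsf7, which carries a zinc knuckle and acts in mRNA export, was 2.41-fold lower than in ORS and 2.12-fold lower than in IFE. Srsf3, the smallest SR protein, was at 209 to 263 CPM in HFSC and 424 to 630 CPM elsewhere, 2.24-fold and 2.05-fold lower. Of these 3 genes, all 4 HFSC libraries lay below all 8 others. With control libraries only, the changes of Srsf1 were -1.42 against ORS and -1.08 against IFE, and those of Srsf7 were -1.33 and -1.08.

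A few members ran the other way. Srsf5 was at 486 to 578 CPM in HFSC, 428 to 530 CPM in ORS and 303 to 480 CPM in IFE. It was called higher than in IFE (0.39 ± 0.13, adjusted p 0.0361 in limma), and against ORS its change was 0.13 ± 0.13 (interval -0.16 to 0.42). Srsf11, Hnrnph3 and Srsf2 were also called higher in HFSC than in IFE, by 0.49, 0.79 and 0.56. None of these 4 was called with control libraries only, and each also lost the call without HFSC control L136 and without HFSC knockout L95. Srsf2 was the single member called higher than in ORS (0.57 ± 0.17), a value that holds the ORS knockout libraries which prompted the choice. That call was lost without ORS control E341 or E344, ORS knockout E358, HFSC control L136, or either HFSC knockout library. With control libraries only, Srsf2 was at -0.15 against ORS and -0.06 against IFE, and on the deposited scale it was at -0.42 against ORS.

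Among SF3 genes, Sf3b5, a small subunit of SF3B, stood apart: it was at 76.1 to 98.1 CPM in HFSC, 126 to 198 CPM in ORS and 190 to 251 CPM in IFE. It was 1.87-fold lower than in ORS (adjusted p 0.00255 in limma) and 2.53-fold lower than in IFE (adjusted p 0.000113). Sf3a3 was also called lower than in ORS, by 0.68 on the log2 scale (1.61-fold, adjusted p 0.0341 in limma). That call was lost with control libraries only (adjusted p 0.214) and with any single library of HFSC or ORS left out except ORS knockout E358 (0.0304 to 0.108). The core subunit Sf3b1 was at 392 to 497 CPM in HFSC against 531 to 635 CPM in ORS, which was not called (-0.43, adjusted p 0.111), and its change against IFE was 0.15 (interval -0.26 to 0.56). Sf3b2 was at 0.04 against ORS and 0.35 against IFE, neither called. Thus 6 of the 8 SF3 genes passed the test in neither comparison with HFSC.

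**Figure D3:**
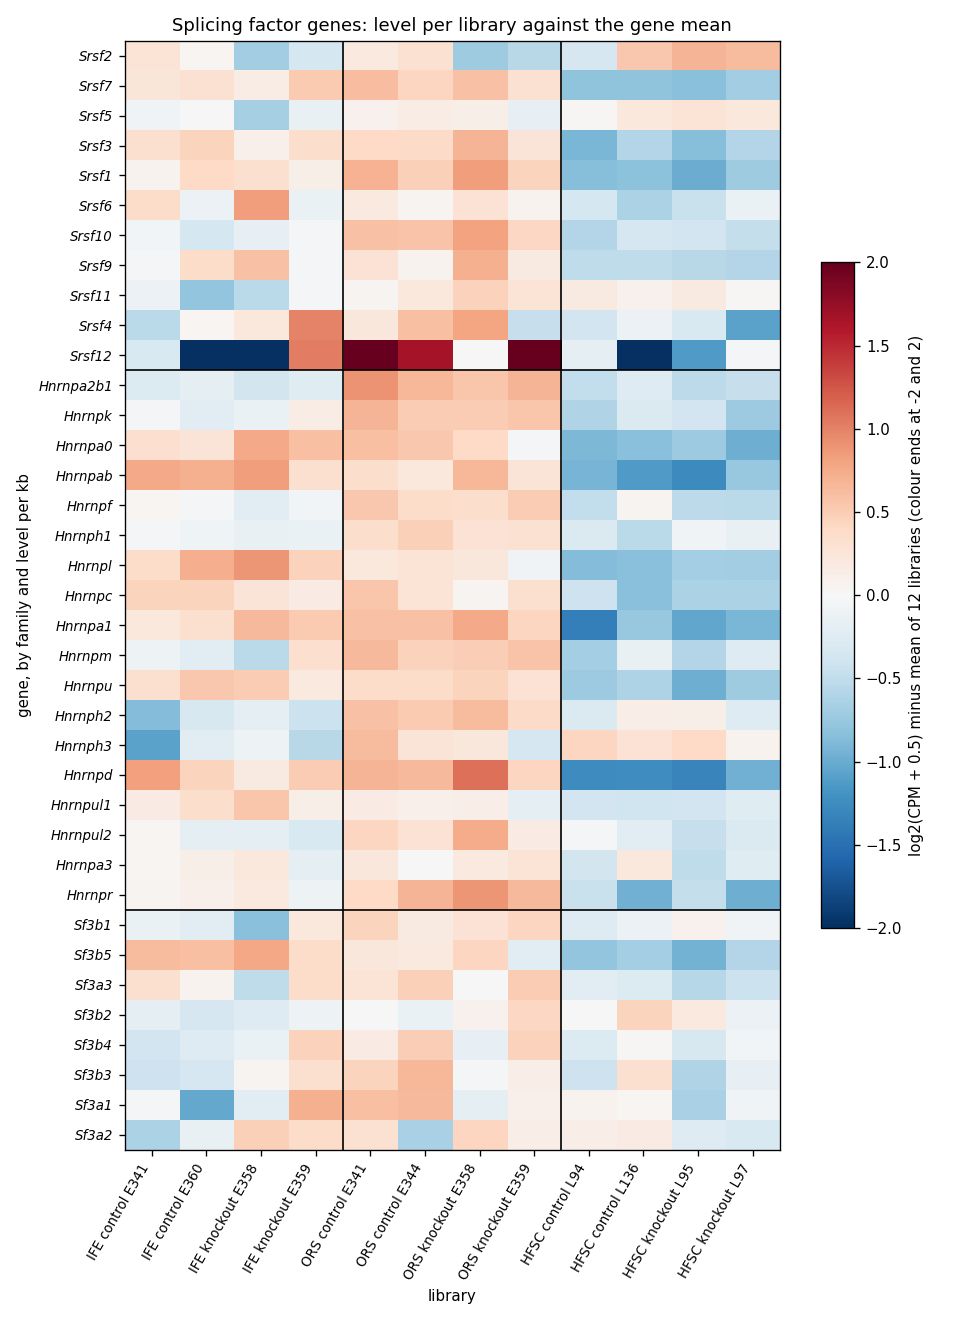
Level of each of the 37 members in the 12 libraries as log2(CPM + 0.5) minus the mean of the gene over the libraries, with genes in rows by family and falling level per kb, and libraries in columns by group. Colours run from blue (below the mean) to red (above) and end at -2 and 2; most hnRNP rows and those of Srsf1, Srsf3 and Srsf7 are blue in the 4 HFSC columns, while those of Srsf2 and Srsf5 are not.

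Between ORS and IFE, 8 of 37 members were called, all of them higher in ORS, where 15.8% of all 14458 genes tested were called, 8.38% higher and 7.39% lower. The median change of the members was 0.26, and 0.12 over all genes. The 8 were 7 hnRNP genes and Srsf10. Hnrnpa2b1 was at 2403, 2042, 1879 and 2057 CPM in ORS and 1056, 1116, 998 and 1091 CPM in IFE, controls first, with no overlap (1.96-fold, 0.97 ± 0.10, adjusted p 0.000182 in limma). In HFSC it was at 893 to 1076 CPM, 2.19-fold lower than in ORS and near IFE (-0.16, interval -0.37 to 0.05).

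Hnrnph2, a binder of G-rich runs encoded on the X chromosome, was at 236 to 280 CPM in ORS and 98.5 to 157 CPM in IFE (1.98-fold, adjusted p 0.00425 in limma). Its relatives Hnrnph1 and Hnrnpf were 1.36-fold and 1.42-fold higher. Hnrnpk was at 1204 to 1356 CPM in ORS and 719 to 937 CPM in IFE (1.55-fold), Hnrnpm was 1.59-fold higher and Hnrnpr 1.51-fold. Srsf10, an SR protein that represses splicing when dephosphorylated, was at 337 to 441 CPM in ORS and 200 to 249 CPM in IFE (1.67-fold, adjusted p 0.00861). The exons of Hnrnpm overlap those of March2 on the same strand over 14.7% of their length, and March2 was at 12.9 to 69.8 CPM in all libraries.

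Srsf11 (0.62, adjusted p 0.0574) and Hnrnpl (-0.45, adjusted p 0.0717) missed the threshold in limma. The change of Srsf2 between ORS and IFE was -0.01 (interval -0.32 to 0.29), and 0.10 with control libraries only. It is given as a description, since it uses the ORS knockout libraries in which Srsf2 was chosen. Between the control groups, 914 of all 14458 genes were called, 461 higher and 453 lower in ORS. The members among them were Hnrnpa2b1, Hnrnph2, Hnrnpk and Sf3b3, the last not among the 8 above. Hnrnpf, Hnrnph1, Hnrnpm, Hnrnpr and Srsf10 were not called between the control groups. With control libraries only, 4 members were called, and leaving out 1 library gave 4 to 10. The count was 4 without IFE control E360, without ORS control E341 and without ORS control E344, and 5 without IFE control E341, without IFE knockout E358 and without ORS knockout E359. Hnrnpa2b1, Hnrnph2, Hnrnpk and Srsf10 were called whichever of the 8 libraries was left out. On the deposited scale all 37 members were called higher in ORS, with a median of 1.11 over all genes and 6644 genes called higher against 470 lower, so the directions given here are relative to the genes as a whole.

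**Figure D4:**
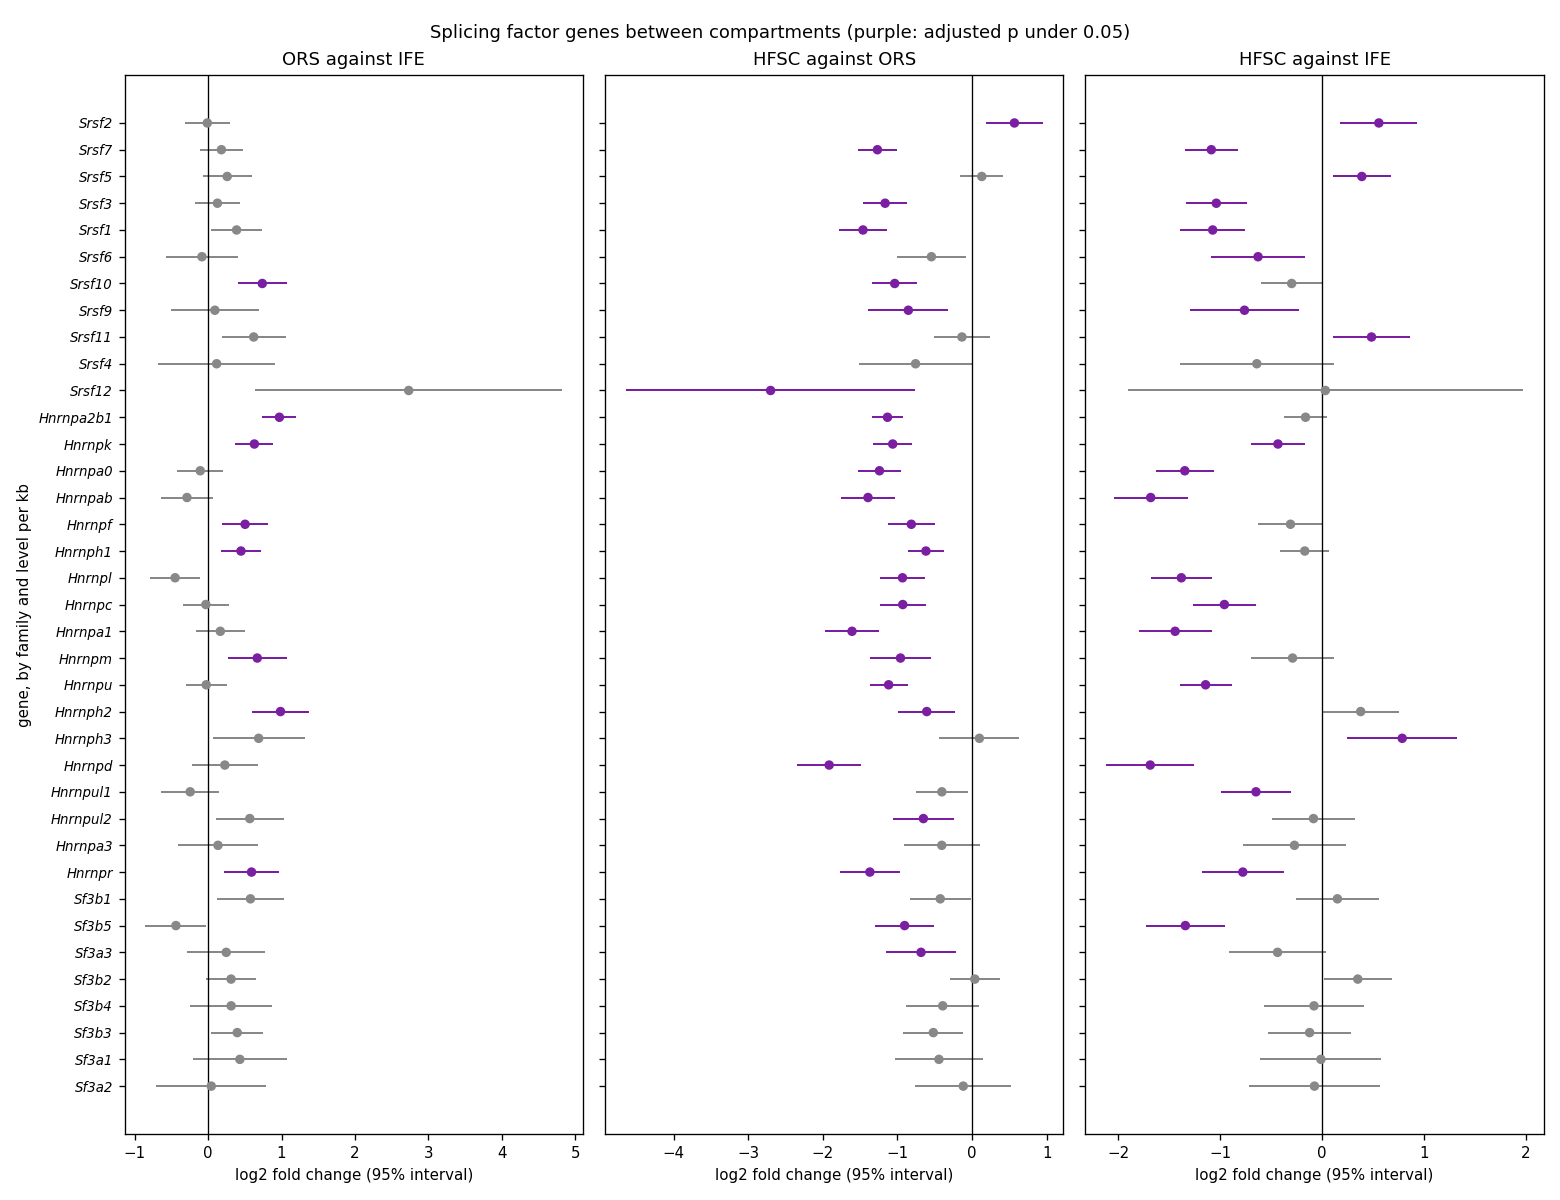
Log2 fold change with its 95% interval (x axis) of each member (rows) for ORS against IFE, HFSC against ORS and HFSC against IFE, each panel with its own x range. Purple marks the 8, 24 and 20 members at an adjusted p under 0.05 and grey the others. Most purple points lie below 0 in both HFSC panels and above 0 in the ORS against IFE panel. Srsf2, purple and above 0 for HFSC against ORS, is a description there, since it uses the ORS knockout libraries that prompted the choice.

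In IFE knockout against control, 0 of 37 members were called in limma, and 0.0% of the 14458 genes tested were. Egfr, the deleted gene, was thus not called either, though its log2 change was -8.08 to -7.36 with 1 library left out. The lack of calls therefore does not show that the members were unchanged. At an unadjusted p under 0.05 there were 2 members, Srsf2 and Sf3b3, and 1091 of all genes. With limma-voom no member was called either, with 1 member and 578 genes under an unadjusted 0.05. Knockout and control libraries did not overlap for 11 members, 6 higher and 5 lower, or 29.7% of members against 30.8% of all genes (13.8% higher and 17.1% lower). Sf3b3, an SF3B subunit, was at 128 and 135 CPM in control and 176 and 213 CPM in knockout (0.55 ± 0.23, adjusted p 0.614). In ORS the same gene was at 233 and 271 CPM in control and 167 and 186 CPM in knockout (-0.51), so the separated libraries ran in opposite directions. Such opposite separation in IFE and ORS was found for 2 members (5.41%), against 4.34% of all 14458 genes.

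Hnrnpa0 showed the same reversal, with 388 and 368 CPM in IFE control, 519 and 468 CPM in IFE knockout, 465 and 449 CPM in ORS control and 407 and 302 CPM in ORS knockout. Sf3a1 was at 120 and 124 CPM in ORS control and 69.1 and 84.3 CPM in ORS knockout (-0.67). In IFE its libraries overlapped, at 77.3 and 38.6 CPM against 67.1 and 130 CPM. Hnrnph3 was at 104 and 80.5 CPM in ORS control and 78.2 and 53.1 CPM in ORS knockout (-0.50). Sf3b2, Srsf11 and Hnrnph1 were the other separated members with a change of 0.33, 0.23 and -0.12. In ORS 8 members were separated, 2 higher and 6 lower, or 21.6% against 31.4% of all genes (14.6% higher and 16.8% lower). The median change over the 37 members was -0.04, against -0.03 over all genes.

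In HFSC, 0 of 37 members were called in limma, where 5 of 13778 genes (0.0363%) were, 0.029% higher and 0.00726% lower, and no member reached an unadjusted p of 0.05, against 1044 of all genes. With limma-voom no member and no gene was called. Knockout and control were separated for 11 members, 5 higher and 6 lower, or 29.7% against 38.0% of all genes (19.7% higher and 18.3% lower). For 4 members (10.8%) the libraries were separated in opposite directions in IFE and HFSC, against 6.5% of the 13117 genes tested in both. Hnrnph1 was at 310 and 260 CPM in control and 361 and 344.5 CPM in knockout (0.31 ± 0.17, adjusted p 0.697). Sf3a1 stood at 83.2 and 81.0 CPM in control and 50.2 and 74.6 CPM in knockout (-0.42 ± 0.26, adjusted p 0.735). Of the 8 SF3 genes, 7 were fitted lower, with a median of -0.22, while 50.4% of all genes were fitted higher, with a median of 0.0043. With 1 library left out, Sf3b2 (-0.41 to 0.047), Sf3b3 (-0.70 to 0.043), Sf3b4 (-0.22 to 0.077) and Sf3b5 (-0.21 to 0.15) took both signs. Sf3a1, Sf3a2 and Sf3a3 stayed lower. The intervals of single members were wide: the narrowest, that of Hnrnpa2b1, ran from -0.47 to 0.24.

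**Figure D5:**
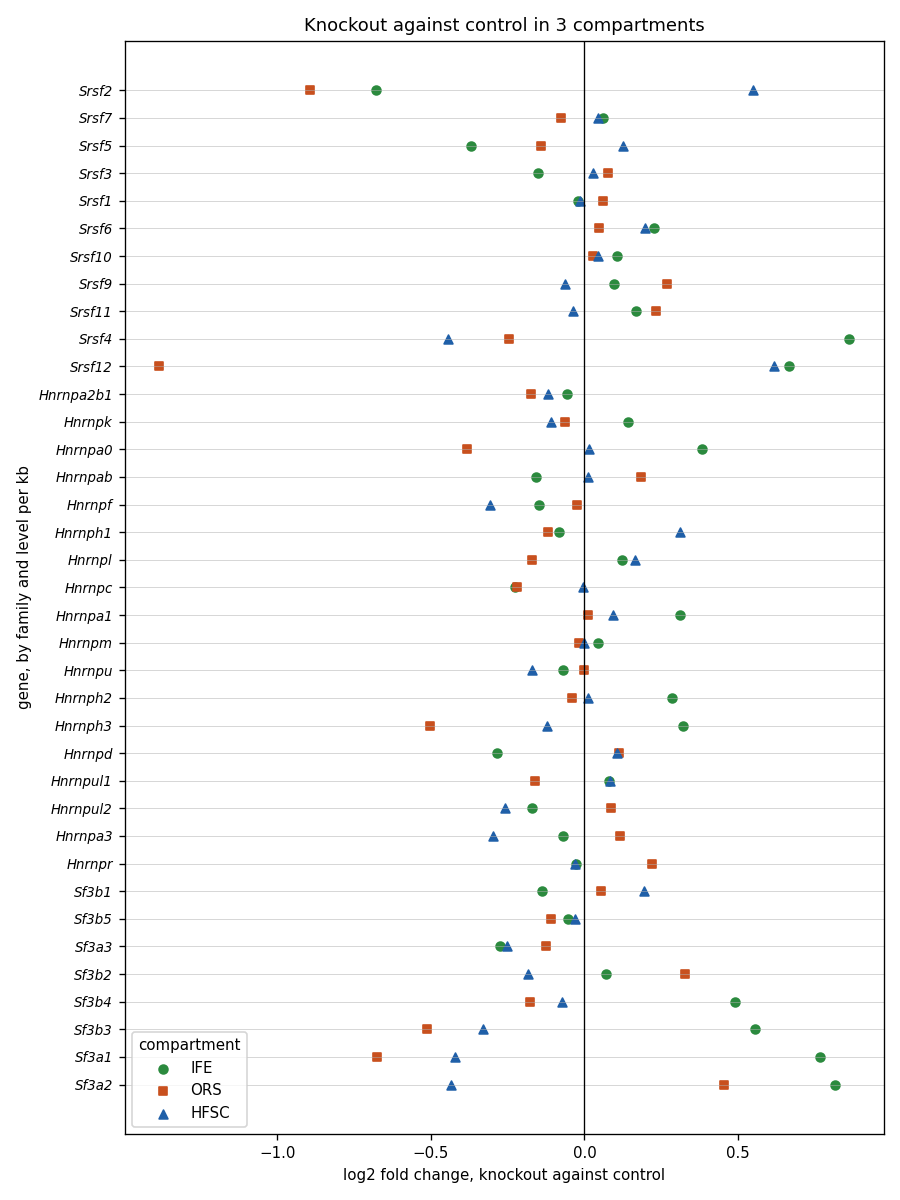
Log2 fold change of knockout against control (x axis) for each member (rows) in IFE (circles), ORS (squares) and HFSC (triangles); ORS values are shown as a description. Srsf2 is at -0.68 in IFE, -0.89 in ORS and 0.55 in HFSC, and no member was called in IFE or HFSC.

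Genes of the splicing machinery outside the members were counted list by list. Over all genes tested, 14.4% were called higher and 14.3% lower in HFSC than in ORS, and 19.8% and 16.3% against IFE. Of 36 core spliceosome genes outside the members (Sm proteins and the U1, U2, U4/U6 and U5 proteins among them), 17 were called lower and 0 higher than in ORS, with a median of -0.60. Against IFE 16 were lower and 1 higher, with a median of -0.51. Snrpd1, an Sm core protein, was lower by a log2 change of -2.15 ± 0.17 against ORS (adjusted p 3.58e-06 in limma) and of -2.35 ± 0.17 against IFE. Of 8 minor spliceosome genes, 1 was called lower than in ORS (Snrnp25) and 2 lower than in IFE, with Zcrb1 at -0.63.

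Of 23 SR protein kinases, importins and SR-related genes, 4 were called higher and 7 lower than in ORS, and 1 higher and 2 lower than in IFE, with medians of -0.16 and 0.15. Tra2b, an SR-like activator of exon inclusion, was at -1.17 ± 0.14 and -0.96 ± 0.14 (adjusted p 8.25e-05 and 0.000242 in limma). Of 35 other hnRNP-like and tissue regulators of splicing, 2 were called higher and 16 lower than in ORS, and 2 and 15 against IFE. Examples were Nono, a paraspeckle protein, at -1.03 against ORS and Qk, a STAR-domain RNA binder, at -1.22 against IFE. Of 15 genes of the exon junction complex and of nonsense-mediated decay, 1 was called higher and 6 lower than in ORS, and 7 lower than in IFE, with the exon junction core gene Magoh at -1.29 and -1.61. Between ORS and IFE, 15.8% of all genes tested were called, 8.38% higher and 7.39% lower. Of these lists, 1 of 36 core genes (Eftud2, a U5 GTPase) and 2 of 23 SR-related genes (among them Pnn) were called, all higher. Of 35 hnRNP-like genes, 6 were called higher (Mbnl1 at 0.85) and 1 lower. Of 15 exon junction and decay genes, 2 were called lower (Upf1 at -1.28). In the IFE and HFSC knockout comparisons no gene of these lists was called.

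Several other lists moved with the HFSC contrast. The 10 proliferation genes were all called lower in HFSC than in ORS (median -4.28) and than in IFE (median -3.28). They summed to 190 to 768 CPM in HFSC, 1938 to 2443 CPM in IFE and 3641 to 4171 CPM in ORS, with none at 0 throughout a group, and 6 of 10 were called higher in ORS than in IFE. Of the 10 immediate-early genes, 6 were called higher in HFSC than in ORS and than in IFE, and Jun was at 1.82 and 1.79. Fibroblast markers, 7 genes, summed to 193 to 255 CPM in ORS, 854 to 1380 CPM in IFE and 772 to 1259 CPM in HFSC, with Col3a1 at 0 throughout every group but HFSC control. The sums were mostly Sparc, at 117 to 134 CPM in ORS and 677 to 1176 CPM in the other libraries, and, in IFE, Dcn (127 to 281 CPM). Col1a1 was higher in ORS (5.72 to 18.6 CPM) than in IFE (at most 0.339 CPM). Immune markers, 6 genes, summed to 11.3 to 24.7 CPM in IFE and ORS and 29.8 to 60.03 CPM in HFSC, with Ptprc and Cd207 at 0 in every group. Their part, that of proliferation and that of the share of reads in genes in the differences between compartments was not tested. In bulk samples, fewer cells of a type and less RNA per cell cannot be told apart.

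Some members are less certain than others. The exons of 18 members overlap those of another gene. Srsf4 shares 43.0% of its exon length with Gm12992 on the opposite strand, and both had similar levels in each library, such as 69.0 and 64.3 CPM in IFE knockout E359 and 16.2 and 14.9 CPM in HFSC knockout L97. Hnrnpab overlaps Phykpl over 29.1% and Sf3a2 overlaps Plekhj1 over 16.1% of their exon length. Near-identical copies (95% identity or more over 300 bp) were found among annotated transcripts of other genes for 11 members. Hnrnpa3 has 27 such copies, Hnrnpf 8 and Srsf3 4. Srsf12 was called lower in HFSC than in ORS, but its 22.7, 6.80, 1.81 and 10.3 CPM in ORS spread widely. In limma the call was lost without ORS control E341, E344 or knockout E359, and without HFSC control L136 or either HFSC knockout library, with an adjusted p of 0.0386 to 0.153 over the libraries left out.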

How the data were processed

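The members and gene lists were chosen with earlier results of these data known. The deposited values are log2 reads per 1000000 of a library total of 39.9 to 60.9 M, per the file contents, and genes with no read sit at 0.9 read. Trim Galore, DESeq2 and the build mm10 appear, without roles, in the submitters' processing notes. Aligner, counter and strand setting: not given in the sources used here.

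Whole reads were recovered from the deposited log2 values (at least 99.99% of values whole within 0.2 reads), and CPM was computed over gene reads with TMM factors (30% and 5% trimmed). limma 3.58.1 (R 4.3.3, statmod 1.5.0; trended, robust prior) was run on log2(CPM + 0.5) for genes reaching 10 reads (scaled to the median library) in 2 libraries and 15 reads overall. For low genes this scale understates fold changes. Benjamini-Hochberg adjustment ran over all genes tested, two-sided, and genes were called under 0.05. IFE and ORS were fitted together (8 libraries, 4 residual degrees of freedom), HFSC knockout alone (4 libraries, 2 degrees) and HFSC against the others in all 12 libraries (6 degrees). The fits were tested on simulated data. No replicate pair agreed within sampling noise: chi-square divided by its degrees of freedom was 41.4 to 140.0.

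Named were Srsf2, the 10 members of lowest unadjusted p in each tested comparison, separated ORS members, the family members highest and lowest per kb, and the lowest p per list. Further members were named after their values were seen. Gene models and copies came from GENCODE M21, promoter windows from RefSeq.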

Additional observations from a re-analysis of the deposited data

Results flagged for a closer look

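For 4 members, both knockout libraries lay on one side of both controls in IFE and on the other side in HFSC, which is 10.8% of the members, against 6.5% of the 13117 genes tested in both. The difference of the HFSC and IFE knockout effects, a contrast added after the values were seen, was tested in the fit of all 12 libraries with limma, and 0 of 15250 genes were called, with 1108 at an unadjusted p under 0.05 and 0 called by limma-voom.

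The difference for Srsf2 was 1.23 ± 0.35 (SE) on the log2 scale, with an unadjusted p of 0.00402 and an adjusted p of 0.415 in limma (0.142 to 0.832 over the alternatives). For Sf3a2 it was -1.25 ± 0.59 (adjusted p 0.702), for Srsf5 0.49 ± 0.26 (adjusted p 0.766) and for Hnrnph1 0.40 ± 0.22 (adjusted p 0.782). Sf3a2 was at 17.9 and 25.1 CPM in IFE control, 39.2 and 36.2 CPM in IFE knockout, 31.0 and 31.6 CPM in HFSC control and 23.4 and 22.7 CPM in HFSC knockout. Sex, genotype and the deletion used differ together between these groups and cannot be told apart.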

How the results depend on the processing

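The counts of members called in IFE and HFSC knockout stayed at 0 under every alternative run (pseudocount, filter, scaling, limma-voom, each library left out). For ORS against IFE the count of 8 became 37 on the deposited scale and 4 with control libraries only, and 4 to 10 with 1 library left out. Of the 4 called between ORS and IFE with control libraries only, 3 were among the 8. For HFSC against IFE the count of 20 became 11 with control libraries only. The control-only comparisons set the control groups against each other within the same fit, while the fits with 1 library left out hold fewer samples. Some fold changes of named genes changed sign. For Srsf2, ORS against IFE was 0.10 without scaling, 0.97 on the deposited scale, 0.10 with control libraries only and -0.10 to 0.074 with 1 library left out. HFSC against ORS was -0.42 on the deposited scale and -0.15 with control libraries only, and HFSC against IFE was -0.056 with control libraries only. On the deposited scale, ORS against IFE was 0.53 for Hnrnpl and 0.73 for Zcrb1. With 1 library left out, Sf3b3 in HFSC knockout ranged from -0.70 to 0.043. The cause was not tested. Among the alternative values of the 94 tested fold changes of genes named by rule, 1418 kept their direction and side of the threshold, 76 lost the call, 15 gained it and 13 changed sign. Over all 37 members, the fitted change took both signs among the alternatives for 20 in IFE knockout, 21 in HFSC knockout, 12 for ORS against IFE, 6 for HFSC against ORS and 8 for HFSC against IFE.

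The numbers E341, E358 and E359 occur in IFE and ORS, and the deviations of same-numbered libraries correlated at 0.0363 to 0.0639. The E358 and E359 values are equal by construction, because deviations within a pair of replicates mirror each other. E341 was set against a male library in IFE (E360) and a female library in ORS (E344). The check therefore cannot decide whether same-numbered libraries share a mouse. By Xist and Y-linked reads, E341 was male and E358 and E359 were female in IFE and ORS alike. The main fits did not pair these libraries. With the replicate block, 9 members were called between ORS and IFE and 0 in IFE knockout.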
